A study of Mus musculus with 31 samples.

Results

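The subject is a set of 10 genes that mark astrocytes in mouse brain, Aqp4, Gfap, Aldh1l1, Slc1a2, Slc1a3, Gja1, Glul, Aldoc, Gjb6 and S100b, chosen by name as textbook astrocyte genes and followed through mRNA, ribosome footprints and translational efficiency (footprints relative to mRNA). All 10 were found among the 20436 gene symbols counted. Whole cortex was taken from mice aged 29 to 34 postnatal days of 4 genotypes. These were wild type (WT), Fmr1-deficient (FXS, the mouse model of fragile X syndrome), Rps6kb1-deficient (S6K1, lacking p70 S6 kinase 1) and deficient in both genes (DKO). No treatment is given in the labels, and neither the strain nor whether the deficiency is confined to a cell type is stated there. Polyadenylated mRNA was sequenced in 16 libraries, 4 of each genotype, and footprints, the stretches of mRNA that ribosomes shield from nuclease, in 15 libraries, with 5 from FXS, 4 from WT and 3 each from the DKO and S6K1 genotypes. The question of the series is how loss of S6 kinase 1 alters cortical mRNA and its translation in mice lacking Fmr1. Within that question, the comparisons below give the astrocyte genes.

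Astrocytes take up the glutamate that neurons release, turn it into glutamine and return it. They also buffer potassium and water around synapses and vessels, and connexins join them into networks. Their intermediate filament protein rises when they become reactive. In whole tissue, fewer astrocytes and less RNA per astrocyte cannot be told apart, and nothing in the labels says that libraries of a genotype came from separate animals, so p-values measure the spread between these libraries.

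Total counts ran from 12.1 to 17.3 M per mRNA library and from 16.6 to 34.9 M per footprint library, and the 10 genes took between 0.201% and 0.390% of an mRNA library and between 0.202% and 0.315% of a footprint library. The lowest count of any of them in any library was 140. The targeted genes followed the labels: in CPM, counts scaled to library size, WT had 117 ± 15.3 Fmr1 footprints (mean and SD, n = 4) and S6K1 had 133 ± 27.7 (n = 3), while FXS had 7.85 ± 0.628 (n = 5) and DKO 10.5 ± 2.37 (n = 3). Mean Rps6kb1 footprints were 28.9 CPM ± 2.48 in WT, 32.5 ± 2.72 in FXS, 11.6 ± 0.352 in DKO and 10.2 ± 2.58 in S6K1. Libraries also fall into batches given in the labels. The mRNA batches 5 to 8 each held every genotype once. The footprint batches 1 to 4 were unbalanced, with no WT or FXS library in batch 1, no DKO in batch 2 and no S6K1 in batch 4, so batch was kept as a term in every model.

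Upstream sequence is shown for the 4 members on which most of the values below turn: Slc1a2, the member nearest to a genotype call, Gfap, which had the largest footprint differences, and Slc1a3 and Gja1, which varied most closely together. Each run is the 250 bases before the start listed by RefSeq (GRCm38.p6), 5′ to 3′ on the gene's strand. Capitals mark the letters TTGGC or their reverse complement GCCAA, the short motif that nuclear factor I proteins, regulators of astrocyte development, are known to bind.
Slc1a2, chr2:102706188-102706437, plus strand: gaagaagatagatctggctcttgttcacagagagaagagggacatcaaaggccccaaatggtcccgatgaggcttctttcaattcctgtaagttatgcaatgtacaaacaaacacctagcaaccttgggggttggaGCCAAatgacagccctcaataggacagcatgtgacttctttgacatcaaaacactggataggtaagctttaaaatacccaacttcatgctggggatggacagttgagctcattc
Slc1a3, chr15:8710808-8711057, minus strand: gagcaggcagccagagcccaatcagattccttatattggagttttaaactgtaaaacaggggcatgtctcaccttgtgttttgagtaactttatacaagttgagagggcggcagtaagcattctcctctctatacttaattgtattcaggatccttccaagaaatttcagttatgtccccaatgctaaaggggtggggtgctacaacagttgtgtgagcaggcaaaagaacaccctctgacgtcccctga
Gja1, chr10:56377050-56377299, plus strand: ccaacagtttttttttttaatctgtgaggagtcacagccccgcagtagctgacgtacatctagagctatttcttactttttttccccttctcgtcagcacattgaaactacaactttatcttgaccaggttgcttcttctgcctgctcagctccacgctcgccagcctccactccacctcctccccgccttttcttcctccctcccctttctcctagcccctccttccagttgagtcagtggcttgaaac
Gfap, chr11:102897201-102897450, minus strand: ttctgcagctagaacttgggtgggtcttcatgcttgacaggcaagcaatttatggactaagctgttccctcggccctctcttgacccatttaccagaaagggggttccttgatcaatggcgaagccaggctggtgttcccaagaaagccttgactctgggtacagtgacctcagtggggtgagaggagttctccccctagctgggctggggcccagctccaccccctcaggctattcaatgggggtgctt
The Slc1a2 window lies inside the annotated span of its gene, chr2:102658239-102790784. Sequence was matched for 9 of the 10 members, in 10 windows. The motif was found on either strand in a window of 4 members, with 1 match in Slc1a2, 2 in Glul, 1 in Aldoc and 3 in S100b, and in 41.5% of the 32851 windows of that length in the table. A match is a description of these letters, not a bound site. Gfap and Aldoc share chromosome 11 with Rps6kb1, at distances of 16.3 Mb and 8.17 Mb.

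No member was called different between genotypes in mRNA, footprints or translational efficiency, where a call is a p under 0.05 in edgeR's quasi-likelihood test after Benjamini-Hochberg adjustment across every gene tested. In mRNA, 0 of 10 were called in FXS against WT, where 0.155% of the 14215 genes tested were called, 0 of 10 in S6K1 against WT (0.0211% of all genes), and 0 of 10 in DKO against WT (5.23%). In footprints the counts were again 0 of 10, beside 0.165%, 0.00717% and 0.366% of 13953 genes. In translational efficiency they were 0 of 10 beside 0.0952%, 0.0293% and 4.85% of 13654 genes. Members at an unadjusted p under 0.05 numbered 2 in mRNA of FXS, 0 of S6K1 and 1 of DKO, beside 12.7%, 7.37% and 22.3% of all genes. They numbered 0, 0 and 1 in footprints, beside 9.87%, 8.74% and 17.1%, and 1 in each genotype in translational efficiency, beside 13.4%, 7.51% and 24.9%. Where so few of all genes were called, a count of 0 among 10 is near the background. The comparisons of DKO with FXS and with S6K1 also called 0 of 10 in each measure, beside 0.0281% and 0.387% of all genes in mRNA, 0.0143% and 0.00717% in footprints and 0.0146% and 0.00732% in translational efficiency. Limma voom called none of the members against WT either, and DESeq2 called 1, Slc1a2 mRNA in FXS.

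In mRNA the members' median log2 fold change was 0.01 in FXS, -0.06 in DKO and -0.09 in S6K1, while the median over all genes tested lay within 0.01 of 0 in each. In footprints, for FXS, S6K1 and DKO in that order, it was 0.06, 0.07 and 0.04, beside 0.00, -0.02 and -0.01 over all genes. In translational efficiency, in the same order, it was 0.01, 0.10 and 0.06, beside -0.01, -0.02 and -0.02. These comparisons share the WT libraries. Single libraries moved the medians and turned some signs. In S6K1, leaving out the library of batch 1 or of batch 3 took the footprint median to -0.11 or 0.24 and that of translational efficiency to -0.06 or 0.41. In DKO, leaving out the library of batch 3 or of batch 1 took them to -0.19 or 0.13 and to -0.15 or 0.20.

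**Figure D1:**
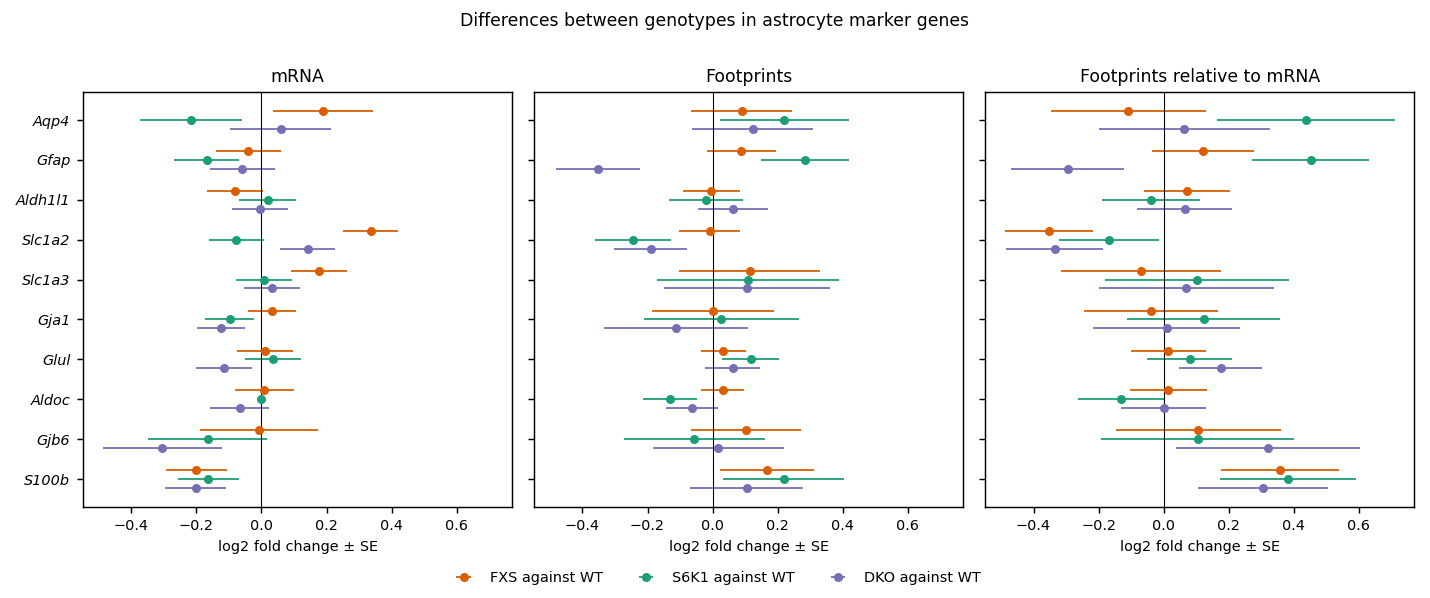
Log2 fold change of each astrocyte gene against WT, with its standard error, in mRNA, footprints and footprints relative to mRNA, from the edgeR fits with batch in the model. Points are coloured by genotype; Aldoc mRNA in S6K1, which lies at 0, is drawn without a bar, and no point passed the adjusted threshold.

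Among the genes for glutamate uptake and recycling, Slc1a2 came closest to a genotype call. Slc1a2 encodes GLT-1, the transporter that clears most synaptic glutamate in forebrain. Its mRNA in batches 5, 6, 7 and 8 was 188, 180.5, 208 and 204 CPM in WT and 196, 236, 269 and 299 in FXS. It was 126, 198, 208 and 224 in S6K1 and 170.1, 207, 239.6 and 258 in DKO. The FXS library was above the WT library of its batch in 4 of 4 batches, by 0.07 to 0.55 on the log2 scale, although the lowest FXS library lay below the 2 highest of WT. How many of all genes keep 1 direction in 4 of 4 batches was not counted, here or for the members below. The log2 fold change in FXS against WT was 0.34 ± 0.0844 (SE), with an edgeR adjusted p of 0.0908. DESeq2 gave an adjusted p of 0.0125 and limma voom 0.0792. The authors' deposited table lists 0.343 with an adjusted p of 0.0134. Over all alternatives the adjusted p ran from 0.00755 to 0.998, and without the WT library of batch 5 the difference was 0.47 with an adjusted p of 0.0184. In DKO against WT it was 0.14 ± 0.0845 (0.332), and 0.08 or 0.27 without the WT library of batch 8 or of batch 5. In DKO against FXS it was -0.19 (adjusted p 0.470), lower in 4 of 4 batches.

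Slc1a2 footprints did not follow this order. In WT they were 730.4 CPM in batch 2, 969.7 in batch 3 and 564 and 562 in batch 4. In FXS they were 807 and 882 in batch 2, 867 in batch 3 and 606 and 464 in batch 4. In S6K1 they were 962, 689 and 690.3 in batches 1, 2 and 3, and in DKO 827, 852 and 497 in batches 1, 3 and 4. All 5 libraries of batch 4 were low whatever the genotype, and the genotypes overlapped. The log2 fold change was -0.01 ± 0.0926 in FXS, -0.24 ± 0.118 in S6K1 (edgeR adjusted p 0.589) and -0.19 ± 0.112 in DKO (0.383). Without the batch term these last 2 became 0.14 and 0.04, without the S6K1 library of batch 3 the S6K1 value became -0.11, and without the DKO library of batch 1 the DKO value became -0.11. Footprints relative to mRNA were lower by estimate in FXS, at -0.35 ± 0.135 (adjusted p 0.278), and in DKO, at -0.33 ± 0.150 (0.165; -0.13 without the batch term), and neither was called.

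Slc1a3 encodes GLAST, the transporter most used by cerebellar and developing astrocytes. Its mRNA in batches 5 to 8 was 172, 287, 320.5 and 347 CPM in WT and 194, 324, 359 and 395 in FXS, above the WT library of the same batch in 4 of 4. The log2 difference was 0.18 ± 0.0852 (edgeR adjusted p 0.394). Batch 5 was the low library in both genotypes, and the groups overlapped. Glul encodes glutamine synthetase, which converts the captured glutamate to glutamine. Glul mRNA averaged 1073 CPM ± 240.1 in WT, 1079.5 ± 268 in FXS, 987 ± 222 in DKO and 1082 ± 140.3 in S6K1 (SD, n = 4 each). Its log2 fold changes against WT lay between -0.12 and 0.04 in mRNA and between 0.03 and 0.12 in footprints, none of them called. Of 13 partner genes in glutamate and glutamine handling, 1 was called in mRNA of DKO against WT, where 5.23% of all genes were called. That gene was Slc17a7, the vesicular glutamate transporter of cortical neurons, which rose by 0.33 ± 0.0750 (edgeR adjusted p 0.0155). Slc17a7 translational efficiency fell by 0.63 in the same comparison (adjusted p 0.0402), where 4.85% of all genes were called in that measure. No other partner was called in FXS, S6K1 or DKO against WT. Slc17a7 is on the neuronal list too, where Tubb3, a neuronal tubulin, also rose in mRNA of DKO, by 0.28 ± 0.0719 (0.0267). Slc17a7 mRNA was also higher in DKO than in S6K1, by 0.36 (0.0387).

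**Figure D2:**
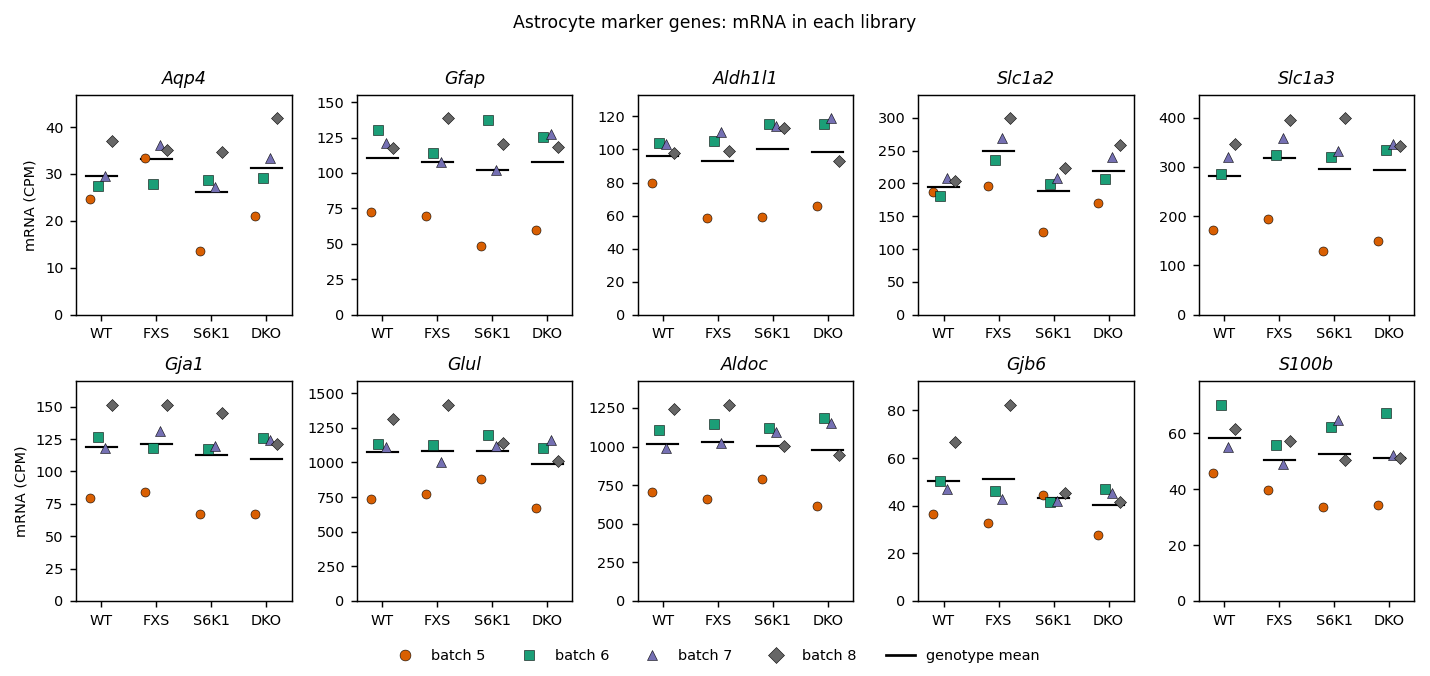
mRNA of each astrocyte gene in CPM, 1 point per library, by genotype on the x axis and batch by symbol, with the genotype mean as a bar. In Slc1a2 the FXS libraries reach 299 CPM while WT ends at 208, and batch 5 is the lowest library in 37 of the 40 groups of a gene and a genotype. That order was not counted over all genes.

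Gfap, the intermediate filament protein of astrocytes and a standard marker of their reactive state, had the largest footprint differences in the set. Gfap footprints were 33.3, 41.8 and 53.5 CPM in DKO (batches 1, 3 and 4) and 65.6, 50.05 and 64.9 in S6K1 (batches 1, 2 and 3). In WT they were 49.8 and 54.0 in batches 2 and 3 and 65.4 and 57.3 in batch 4. In FXS they were 52.1 and 60.3 in batch 2, 46.5 in batch 3 and 69.6 and 65.7 in batch 4. The 2 lowest libraries of all 15 were DKO libraries, while the DKO library of batch 4 lay within the range of the other genotypes. Within its own batch the DKO library was the lowest in each of the 3 batches that hold one. The log2 difference of DKO was -0.35 ± 0.129 from WT (edgeR adjusted p 0.205), -0.44 ± 0.129 from FXS (0.762) and -0.64 ± 0.133 from S6K1 (0.304). With only DKO and FXS fitted, the difference between them was -0.26. Against WT, Gfap footprints differed by 0.09 ± 0.106 in FXS (0.816) and by 0.28 ± 0.135 in S6K1 (0.582). The FXS value ran from 0.03 without the FXS library of 60.3 CPM to 0.17 without that of batch 3, and the S6K1 value from 0.17 to 0.52 on leaving out its library of batch 1 or of batch 2. S6K1 and WT share only batches 2 and 3, where the log2 differences were 0.01 and 0.26. Without the batch term the S6K1 value was 0.09. The comparisons of DKO with FXS and S6K1 are named here after their values were seen, and they share the DKO libraries.

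Gfap mRNA did not show that difference. It averaged 110.4 CPM ± 25.7 in WT, 108 ± 28.4 in FXS, 108 ± 32.1 in DKO and 102 ± 38.6 in S6K1 (SD, n = 4 each), and its log2 fold changes against WT were -0.04 in FXS, -0.06 for DKO and -0.17 for S6K1, the last at -0.04 with batch 5 left out. Gfap translational efficiency was 0.45 ± 0.179 higher by estimate in S6K1 against WT (edgeR adjusted p 0.582), or 0.22 without the batch term. It was 0.29 lower in DKO against WT (-0.29 ± 0.174, 0.294) and lower in DKO against S6K1 (-0.75 ± 0.178, 0.201). DESeq2 called the last of these (adjusted p 0.0202) and the footprint difference of DKO against S6K1 (0.0145). The genotype interaction, the change from S6K1 to DKO minus that from WT to FXS, was -0.72 ± 0.173 in footprints with an unadjusted p of 0.000802 and an edgeR adjusted p of 1.00, rank 11 of all genes tested. No gene was called for it, in 0% of genes. Gfap, the member of smallest unadjusted p there, is given for it outside the rule for naming members.

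Of 17 other genes of the reactive state, 13 passed the count filter, and 1 was called against WT, Vim, the filament protein vimentin, whose mRNA fell by 0.67 ± 0.109 in DKO (edgeR adjusted p 0.00278). That is 1 of 13, in a comparison that called 5.23% of all genes. Vimentin is also made by vessel cells, and Slco1a4, an endothelial transporter, fell by 0.63 ± 0.151 in the same comparison (0.0226). It was the only one of 7 endothelial markers called there. The summed endothelial markers ranged from 26.1 to 90.4 CPM in DKO and from 42.7 to 144 CPM in WT mRNA, with none at 0, and their part in the Vim result was not tested.

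**Figure D3:**
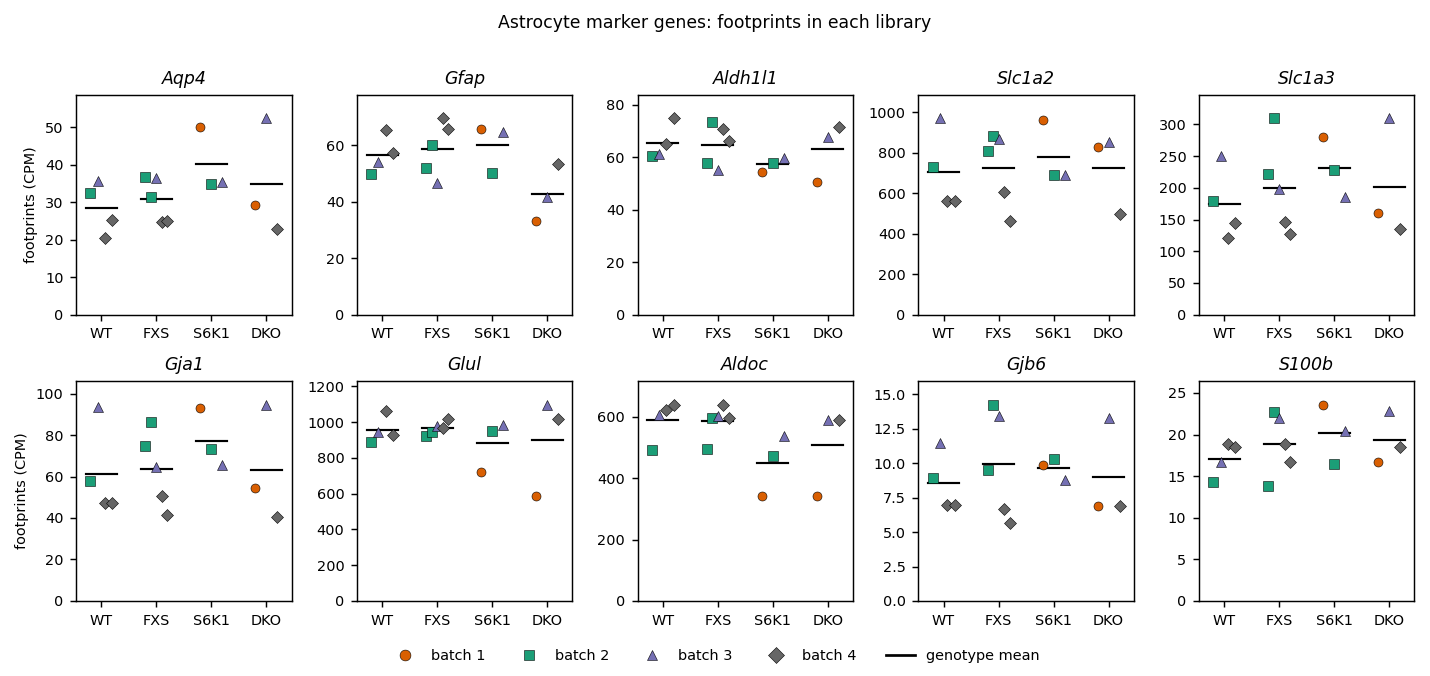
Footprints of each astrocyte gene in CPM, 1 point per library, by genotype on the x axis and batch by symbol, with the genotype mean as a bar. Gfap in DKO runs from 33.3 to 53.5 CPM, and the batch 4 libraries lie lowest in Aqp4, Slc1a2, Slc1a3, Gja1 and Gjb6 in each genotype that has one.

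Aqp4 encodes the water channel of astrocyte endfeet. Aqp4 mRNA averaged 29.6 CPM ± 5.25 in WT, 33.2 ± 3.72 in FXS, 31.3 ± 8.69 in DKO and 26.1 ± 8.96 in S6K1, and its log2 fold changes ran from -0.22 to 0.19. The connexins Gja1 (connexin 43) and Gjb6 (connexin 30) form the gap junctions between astrocytes. Gja1 mRNA averaged 119 CPM ± 29.7 in WT, 121 ± 28.5 in FXS, 109.5 ± 28.4 in DKO and 112 ± 32.6 in S6K1. Gjb6 mRNA averaged 50.2 CPM ± 12.5 in WT, 51.0 ± 21.7 in FXS, 40.3 ± 8.67 in DKO and 43.4 ± 1.88 in S6K1. Gjb6 was below WT in 4 of 4 batches in DKO, with a log2 fold change of -0.30 ± 0.184 (edgeR adjusted p 0.362). None of the 3 channel genes was called in any measure.

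Aldh1l1, an enzyme of folate metabolism widely used to label astrocytes, and Aldoc, the brain form of aldolase in glycolysis, moved little in mRNA, with log2 fold changes against WT between -0.08 and 0.02 for Aldh1l1 and between -0.07 and 0.01 for Aldoc. Aldh1l1 footprints were 60.3, 61.4, 64.9 and 74.8 CPM in WT and 54.5, 57.7 and 59.6 in S6K1. Every S6K1 library thus lay below every WT library, the only such separation among the 100 comparisons of a member between genotypes in both assays. In this comparison 6.41% of all genes tested separated in that direction, and the log2 difference with batch in the model was -0.02 ± 0.112 (edgeR adjusted p 0.977). Batch 4, which holds the 2 highest WT libraries, has no S6K1 library. Aldoc footprints averaged 590.3 CPM ± 65.9 in WT and 452 ± 99.8 in S6K1, and the log2 difference with batch in the model was -0.13 ± 0.0826 (0.709).

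S100b encodes a calcium-binding protein of astrocytes that is also made in oligodendrocyte-lineage cells. S100b mRNA in batches 5 to 8 was 45.9, 70.3, 55.0 and 61.6 CPM in WT, 39.9, 55.8, 49.2 and 57.2 in FXS, 33.5, 62.4, 64.8 and 50.3 in S6K1 and 34.4, 67.2, 52.4 and 51.3 in DKO. It was below the WT library of its batch in 4 of 4 batches in FXS and in DKO, and in 3 of 4 in S6K1, while the groups overlapped. These comparisons share the WT libraries. The log2 fold change was -0.20 ± 0.0939 in FXS (edgeR adjusted p 0.378), -0.16 ± 0.0943 in S6K1 (0.724) and -0.20 ± 0.0940 in DKO (0.204). S100b footprints went the other way by estimate, at 0.17 ± 0.146 in FXS, 0.10 ± 0.175 in DKO and 0.22 ± 0.186 in S6K1, none called. The FXS value was 0.05 without the highest FXS library, that of 22.8 CPM in batch 2. Translational efficiency was 0.36 ± 0.181 in FXS (0.391), 0.38 ± 0.209 in S6K1 (0.720) and 0.31 ± 0.2002 in DKO (0.349). Oligodendrocyte markers moved in footprints of FXS and DKO against WT: Cnp and Myrf fell in FXS, by 0.52 and 0.69, and Cnp, Opalin and Myrf in DKO, by 0.64, 0.88 and 0.84. Of all genes, 0.165% and 0.366% were called in footprints there, and 0.00717% in S6K1. Translational efficiency fell for Myrf in FXS, by 0.70, for Cnp in S6K1, by 0.63, and for 7 of the 10 in DKO, Myrf by 0.96, Cnp by 0.71, Opalin by 1.01, Mog by 0.78 and Cldn11 by 1.01 among them. Of all genes, 0.0952%, 0.0293% and 4.85% were called in that measure in FXS, S6K1 and DKO. The part of the oligodendrocyte markers in the S100b values was not tested.

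A wider list of 40 other astrocyte genes was counted in the same way. None was called in FXS or S6K1 in any measure, where 0.165% or fewer of all genes were, with 2 at an unadjusted edgeR p under 0.05 in mRNA of each genotype, 2 in footprints of each, and 0 and 1 in translational efficiency. Among all genes, 12.7% and 7.37% were at that level in mRNA, 9.87% and 8.74% in footprints and 13.4% and 7.51% in translational efficiency. In DKO against WT, where 5.23% of all genes were called in mRNA, 1 of 40 was called in mRNA, Ttyh1, a chloride channel of the tweety family, which rose by 0.25 ± 0.0684 (adjusted p 0.0344). Ttyh1 was also higher in DKO than in S6K1, by 0.32 (0.0464). None was called in footprints or translational efficiency, where medians were -0.18 and -0.19 beside -0.01 and -0.02 over all genes, with 6 and 11 of 40 at an unadjusted p under 0.05. All genes tested had 17.1% and 24.9% at that level.

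In mRNA the ratio of the highest to the lowest batch mean, from 1.45 for Slc1a2 to 2.29 for Slc1a3, exceeded that of the genotype means, from 1.05 to 1.32, in each of the 10 genes. In footprints it did so for 9 of 10. The exception was Gfap, with 1.26 between batches and 1.40 between genotypes, and S100b was nearly level at 1.22 and 1.18. These are ratios of unadjusted means, and the footprint batches are unbalanced over genotypes, so each footprint ratio mixes batch and genotype. All 10 were called for a difference between mRNA batches, where 40.5% of all genes were, and 8 of 10 for a difference between footprint batches, where 53.9% were. The exceptions in footprints were Aldh1l1 (edgeR adjusted p 0.0658) and S100b (0.392). In mRNA, batch 5 was low for every member: the log2 difference from the mean of batches 6 to 8 ran from -0.42 ± 0.0707 for Slc1a2 to -1.08 ± 0.0746 for Slc1a3, and 10 of 10 were called lower, where 46.3% of all genes were called, 24.4% lower and 21.9% higher. Gfap was lower by 0.96, Gja1 by 0.79, Aldh1l1 by 0.71, Aldoc by 0.68, S100b by 0.60, Glul by 0.59, Aqp4 by 0.50 and Gjb6 by 0.48. The median was -0.64, against 0.02 over all genes. Gjb6 had the weakest call (edgeR adjusted p 0.0237), and 3 of the 16 fits that leave out 1 library lost it. Batch 5 was singled out because earlier results of these data showed it apart.

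The drop was seen inside every genotype for nearly every member. Over the 40 pairs of a member and a genotype, the batch 5 library was the lowest of the 4 in 37, the exceptions being Aqp4 in FXS, Gjb6 in S6K1 and Slc1a2 in WT. The share of all genes with that order was not counted, while 24.4% of all genes were called lower in batch 5. The summed level of the 10 genes ran from 1881 to 2185 CPM in batch 5 and from 3027 to 3947 CPM in batches 6 to 8, with no overlap. Since each mRNA batch holds each genotype once, the genotype contrasts compare libraries within batches. With batch 5 left out, Slc1a2 was called in FXS (0.44, edgeR adjusted p 0.0138), and no other member was called in any mRNA contrast of FXS, S6K1 or DKO against WT.

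**Figure D4:**
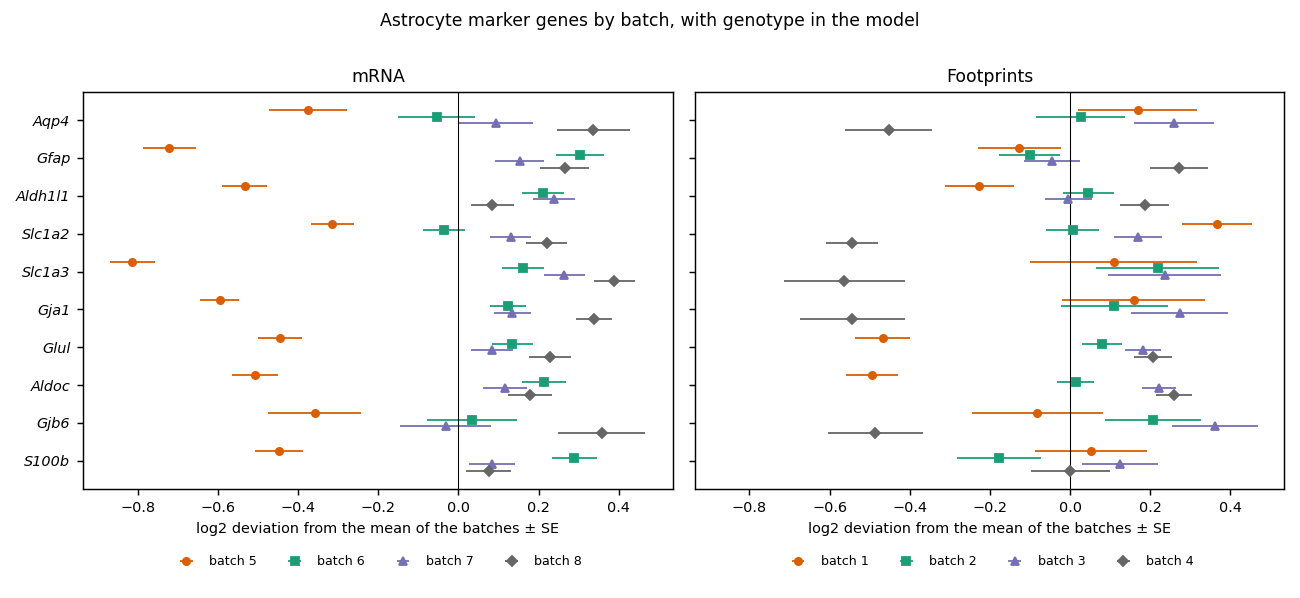
Log2 deviation of each batch from the mean of the batches, with its standard error, for each astrocyte gene in mRNA and in footprints, from the edgeR fits with genotype in the model. In mRNA batch 5 lies below 0 for all 10 genes; in footprints batch 4 lies below 0 for Aqp4, Slc1a2, Slc1a3, Gja1 and Gjb6 and at or above 0.00 for the other 5.

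Most markers of glia and of vessels were lower in mRNA batch 5 too, while neuronal markers went both ways. In that comparison 24.4% of all genes were called lower and 21.9% higher. Of the 40 other astrocyte genes 37 were called lower, with a median of -0.84. The neuronal list had 5 of 10 lower and 2 higher, the oligodendrocyte list 7 of 10 lower and 1 higher, the microglial list 7 of 8 lower with a median of -1.42, and the endothelial list 7 of 7 lower with a median of -1.49. Summed microglial markers ran from 167 to 224 CPM in batch 5 and from 579 to 693 CPM in batches 6 to 8, and summed endothelial markers from 26.1 to 44.6 CPM and from 66.2 to 161 CPM. Their part in the astrocyte result was not tested. Of 5 choroid plexus markers tested 1 was called higher and none lower, and of 4 blood markers none was called; neither list had a call between the mutants and WT. The labels do not say what a batch is.

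Footprint batch 4 split the set instead of shifting it. In batches 2 and 3, 8 of 10 members lay above the mean of the batches, with median log2 deviations of 0.04 and 0.20. Of all genes, 47.9% and 51.0% lay below it there. In batch 4, the 5 members whose proteins span membranes were low, with log2 deviations from the mean of the batches of -0.45 ± 0.109 for Aqp4, -0.54 ± 0.0644 for Slc1a2, -0.56 ± 0.151 for Slc1a3, -0.54 ± 0.130 for Gja1 and -0.49 ± 0.118 for Gjb6. The other 5 were at 0.27 ± 0.0727 for Gfap, 0.19 ± 0.0606 for Aldh1l1, 0.21 ± 0.0477 for Glul, 0.26 ± 0.0447 for Aldoc and 0.00 ± 0.0994 for S100b. Within genotypes, the batch 4 libraries lay below all others in 15 of 15 pairs of a membrane-protein gene and a genotype and in 0 of 15 pairs for the other genes. The share of all genes with that order was not counted, and 53.9% of all genes were called for a difference between footprint batches. In batch 1 the order was partly the reverse: Glul and Aldoc stood at -0.47 ± 0.0688 and -0.49 ± 0.0647, and Slc1a2 at 0.37 ± 0.0876. Grouping the members by where the protein lies was chosen after these values were seen, so it is a description with no test. Of the 40 other astrocyte genes 32 were below 0 in batch 4, with a median of -0.37, as were 8 of 8 microglial and 7 of 7 endothelial markers, while 51.0% of all genes were.

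The same grouping was applied to how members varied together, over the same libraries, which share batches. It was chosen after these correlations too were seen, so its medians are a description with no test. In mRNA all 45 pairs of members were positively correlated over the 16 libraries, with a median Pearson r of 0.79 and a range of 0.32 to 0.97. In footprints 27 of 45 were positive over the 15 libraries, with a median of 0.19 and a range of -0.52 to 0.97. Footprint pairs within the membrane-protein genes had a median r of 0.86, pairs within the others 0.41, and pairs across the groups -0.19. After genotype and batch terms were removed, all 25 footprint pairs across the groups were positive, with a median of 0.58. Medians within the membrane-protein genes and within the others were then 0.74 and 0.51. In mRNA the same removal left a median of 0.36 within the membrane-protein genes, with 7 of 10 pairs positive. It left 0.25 within the others, 8 of 10 positive, and 0.39 across the groups, 17 of 25 positive. Before any such removal, Slc1a3 and Gja1 were the closest pair in both assays, at an r of 0.97 in each. Among the genes outside the set most like its mean over the 16 mRNA libraries were Itgb5 (r = 0.985), Mlc1 (0.984), Mfge8 (0.980) and Axl (0.979), and over the 15 footprint libraries Dio2 (0.872), Eva1a (0.858), Sdc4 (0.800) and Axl (0.796). Mlc1, Mfge8 and Dio2 are themselves on the list of other astrocyte genes.

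Members differed widely in footprints per mRNA, a ratio of mean CPM in which coding length cancels. In WT the ratio was 3.62 for Slc1a2, which ranked 276 among 13654 genes, at percentile 98.0. It was 0.961 for Aqp4, 0.891 for Glul, 0.680 for Aldh1l1, 0.618 for Slc1a3, 0.582 for Aldoc, 0.516 for Gja1 and 0.513 for Gfap. S100b had 0.294, at percentile 12.8, and Gjb6 0.171, at percentile 4.58. On the log2 scale Slc1a2 stood at 1.86 ± 0.202 (SE from the spread between libraries) and Gjb6 at -2.55 ± 0.254, on either side of the median over all genes of -0.35. The members between them, from Aqp4 to Gfap, differed from their neighbours in this order by less than the larger standard error of the pair, except that Glul at -0.17 ± 0.171 and Aldh1l1 at -0.56 ± 0.112 stood further apart. The 2 glutamate transporters thus lay far apart, since Slc1a3 was at -0.69 ± 0.306.

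The order was largely the same in the mutants. Slc1a2 was highest in each, with ratios of 2.90 in FXS, 3.32 in DKO and 4.13 in S6K1. Gjb6 was lowest in each, between 0.194 (FXS) and 0.224 (DKO), and S100b next, between 0.373 (FXS) and 0.382 (S6K1). Aqp4 stood at 1.54 in S6K1 and at 0.961 in WT, but its translational efficiency difference was 0.44 ± 0.274 with an edgeR adjusted p of 0.771. These ratios hold no batch term, and footprint batch 4, which was low for Slc1a2 and Aqp4, has no S6K1 library. The Slc1a2 ratio in S6K1 was above the 3.62 of WT. With batch in the model, its translational efficiency difference was -0.17 ± 0.154 (edgeR adjusted p 0.859). Footprint and mRNA libraries were numbered in separate batches, and the labels do not say that they came from the same animals.

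**Figure D5:**
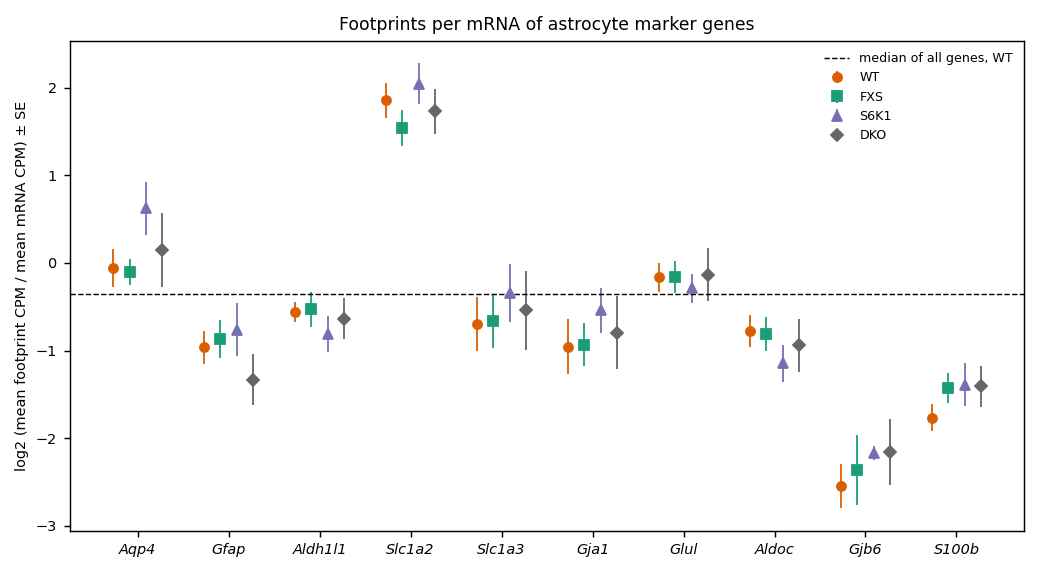
Log2 ratio of mean footprint CPM to mean mRNA CPM for each astrocyte gene by genotype, with its standard error, and the median of all genes in WT as a dashed line. Slc1a2 lies highest in all 4 genotypes and Gjb6 lowest. The ratios hold no batch term, and S6K1 has no footprint library in batch 4.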

How the data were processed

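Raw counts per gene symbol were deposited by the authors, with 1 column per library. Cutadapt 2.0, Bowtie2, TopHat2, RSEM and build mm10 are named in the submitters' processing notes, without their roles. The authors' deposited comparison tables hold, per the file headers, a mean signal, log2 fold changes with their errors, a test statistic (a score) and p-values, for FXS and DKO against WT.

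Here edgeR 4.0.16 in R 4.3.3 was run on the counts (filterByExpr, TMM, robust quasi-likelihood, genotype and batch, 4 genotypes in 1 fit per assay). TMM factors ran from 0.956 to 1.09. Translational efficiency was the footprint contrast minus the mRNA contrast in 1 model of all 31 libraries, on the 13654 genes passing in both assays. SE was derived from the F statistic. DESeq2 1.42.0 and limma 3.58.1 (voom) were alternatives, with other scaling, no filter, no batch term, 2-genotype fits and each library left out. The scripts were tested on simulated data. Libraries of different genotypes in the same batch deviated together from their genotype means (median correlation 0.218 over 24 mRNA pairs and 0.248 over 20 footprint pairs, against -0.123 and -0.0978 in different batches). Replicate numbers follow accession order. In mRNA they coincide with the batches in every genotype, so batch is the pairing there, and in footprints they do not. Replicates of a genotype differed beyond sampling noise (chi-square per degree of freedom at least 4.31).

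All 10 members are named. For each measure and genotype with no call against WT, the 2 members of smallest unadjusted p are given as well, and from the other lists the called genes, up to 5 per list and comparison. Outside these rules, Gfap is given for DKO against FXS and S6K1 and for the interaction, and Slc1a2 mRNA for DKO against FXS. The 5 likeness genes per assay have the highest Pearson r with the members' mean standardised log2 CPM (prior count 2). Some genes that these rules name are not reported here. The members and lists were chosen with earlier results of these data known. Blood markers (4 of 5 found), choroid plexus markers (6) and neuronal markers were listed as other cells.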

Additional observations from a re-analysis of the deposited data

Results flagged for a closer look

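Of 60 groups of 4 or 5 libraries examined over the 10 genes (Dixon's gap test on CPM), 4 had a library far from the others, where chance flags about 1 in 20 groups. All 4 were mRNA libraries of batch 5. Aldh1l1 in S6K1 was 59.1 CPM, against 113 to 115 CPM in the other 3 libraries. In DKO, Gfap was 60.1 CPM against 118 to 127, Gja1 67.1 CPM against 121 to 126, and Slc1a3 151 CPM against 335 to 347.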

How the results depend on the processing

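Of the counts of members called, 4 moved by over 1.5 times or from 0. In mRNA of FXS against WT the count of 0 became 1 (Slc1a2) under DESeq2, with only the 2 genotypes fitted and with batch 5 left out, and ran from 0 to 1 over fits leaving out 1 library, with 1 only without WT replicate 1 (batch 5). In DKO against S6K1, Gfap made the count 1 in footprints under DESeq2 and 1 in translational efficiency under DESeq2 and the 2-genotype fit. The footprint batch count of 8 ran from 4 (without DKO replicate 3) to 10 (without FXS replicate 2). Leaving out 1 library also took the count of 10 between mRNA batches to between 8 (without DKO replicate 1) and 10, and that of 10 for batch 5 to between 9 (without the WT, FXS or DKO library of batch 5) and 10. Without the replicate block, that is with no batch term, Slc1a2 footprints changed sign in S6K1 to 0.1435 and in DKO to 0.03792 against WT, neither called; the footprint batches are unbalanced over genotypes, and the cause was not tested. Counts over all genes moved more: against WT, mRNA calls of 22 in FXS ran from 2 to 446, of 3 in S6K1 from 0 to 6 and of 743 in DKO from 2 to 1093; footprint calls of 23, 1 and 51 ran from 1 to 114, 1 to 37 and 2 to 290; and translational efficiency calls of 13, 4 and 662 ran from 1 to 154, 0 to 14 and 2 to 1169. The medians of the members stayed between -0.19 and 0.41 in those 9 comparisons. All fits could be run.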
